A study of Mus musculus with 6 samples.

Results

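Matrix metalloproteinases (MMPs), ADAMs, ADAMTS proteases and their tissue inhibitors (TIMPs) were examined by RNA-Seq in mock and p140Cap TuBo cells. Members were taken by symbol, as every gene of the deposited counts named Mmp, Adam, Adamts or Timp followed by a member number, and there were 78 of them among 21960 genes: 22 Mmp, 33 Adam, 19 Adamts and 4 Timp genes. TuBo cells were established from a tumor of the BALB/c-MMTV-NeuT mouse, in which the mammary tumor virus promoter drives the rat HER2/neu oncogene, and all 6 libraries share this background. The labels call the 3 mock samples a Balb-NeuT wt cell line and the 3 p140Cap samples the same line over-expressing p140Cap, an adaptor protein with tumor suppressor activity in breast cancer. p140Cap cells received its cDNA in the retroviral vector pBabe-puro, were selected with puromycin, and were a pool of 4 clones grown from single cells. The series' design text speaks of mice, whereas the sample labels and the paper describe cell lines, and the libraries were read here as cultured cells.

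All these proteases are zinc metalloproteinases of the metzincin clan. MMPs are made as inactive precursors and cut collagens, gelatin, laminins and many other proteins of the extracellular matrix. Some are secreted and others stay on the cell surface. ADAMs are mostly transmembrane proteins that release the outer part of membrane-bound growth factors, cytokines and receptors, a step called shedding, although many members belong to the male reproductive tract and several have no protease activity. ADAMTS enzymes are secreted and trim procollagens or large proteoglycans such as versican and aggrecan. TIMPs bind the active site of MMPs, and TIMP3, which stays in the matrix, also blocks several ADAMs and ADAMTS enzymes. In mammary tumors much of this protease set is usually made by stromal and immune cells, so a pure tumor cell line shows which members the epithelial cells express themselves.

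Library totals ran from 33058719 to 75506562 reads in mock and from 13770385 to 15364850 in p140Cap cells, so that every mock library was deeper than every p140Cap library. Srcin1, which encodes p140Cap, had between 509 and 1192 reads in the mock libraries and between 30546 and 36989 in the p140Cap libraries, as the labels say, although reads of the introduced cDNA and of the mouse gene itself are not told apart in these counts. All 5 epithelial markers looked at (Epcam, Krt8, Krt18, Cdh1 and Erbb2) were abundant, with a summed normalised read count (CPM, read counts scaled to a common library size) of 5250 to 5570 in mock and 6180 to 6340 in p140Cap libraries. Of 7 fibroblast markers, Col1a2, Col3a1, Dcn and Lum had no read in any library, and Col1a1 and Pdgfra carried a summed level of 9.97 to 10.5 CPM in mock and 11.3 to 14.1 CPM in p140Cap cells, of which Col1a1 was called higher (log2 fold change, log2FC, of p140Cap over mock 0.80, adjusted p = 0.000244, edgeR) and Pdgfra was not called. Of 7 leukocyte markers, Ptprc, Adgre1 and Lyz2 had no read, while the sum rose from between 99.8 and 107 CPM to between 245 and 257 CPM, mainly through Cd14 and with Cd68 also called higher (log2FC 0.83). Among 4 endothelial markers, Kdr had no read and the sum was at most 0.734 CPM in any library, with Pecam1 called higher (log2FC 1.25, adjusted p = 0.0133, edgeR). The part of these transcripts in the results for the proteases was not tested.

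Members in an Mmp gene cluster on mouse chromosome 9, which encode secreted enzymes, were nearly silent in both groups. They were 9 genes between 7272514 and 7699585 on chromosome 9 (GRCm38). Among them were Mmp1b, the collagenases Mmp13 and Mmp8, the stromelysins Mmp3 and Mmp10, the matrilysin Mmp7 and the macrophage elastase Mmp12. Together these 9 genes had 12 reads over all 6 libraries, out of 191718553 reads on genes, and 5 of the 9 had none. Of the 4 others, Mmp1b and Mmp3 had 5 reads each and Mmp12 and Mmp13 had 1 read each. No group difference could be measured at such levels.

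Inducible genes of this cluster are known to carry a binding motif of the AP-1 transcription factor close to the start of transcription. The motif TGAGTCA, or its reverse complement TGACTCA, was searched in RefSeq promoter windows of GRCm38.p6, each 300 bases long with 50 bases after the start. It was present in the windows of 6 of the 9 cluster genes. The stretches around it are shown because none of the tested members had this motif in its window, with the motif in capitals, up to 15 bases on either side, and each read along the strand of its gene:
Mmp13, chr9:7272464-7272500, plus strand: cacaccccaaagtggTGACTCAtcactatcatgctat
Mmp12, chr9:7347315-7347351, plus strand: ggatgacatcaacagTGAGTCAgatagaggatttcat
Mmp1b, chr9:7388098-7388134, minus strand: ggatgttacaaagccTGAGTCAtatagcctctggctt
Mmp3, chr9:7445761-7445797, plus strand: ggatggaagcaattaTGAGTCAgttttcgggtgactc
Mmp10, chr9:7502264-7502300, plus strand: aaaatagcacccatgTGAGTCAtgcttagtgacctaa
Mmp7, chr9:7692012-7692048, plus strand: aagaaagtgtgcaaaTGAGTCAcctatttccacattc
Mmp12 and Mmp7 each have a further annotated start whose window lacks it. The distance from the first base of the motif to the start was 35 bases in Mmp13, 44 in Mmp12, 46 in Mmp3, 63 in Mmp10 and Mmp7, and 93 in Mmp1b. Promoter windows were found for 48 of the 78 members, and 9 of their 53 windows (17.0%) held the motif, against 5.20% of the 32851 windows in the whole table. Among the 17 tested members with a window, 0 of 18 windows held it. Members that were not tested, with few reads or none, held it in 9 of 35 windows, the genes outside the cluster being Adam19, Adam29 and Adam1b. A match describes the sequence only and does not show that a factor binds there.

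Expression of the remaining members was spread over a wide range. In all, 27 of the 78 members had no read in any library, 20 had some reads but too few for a test, and 31 passed edgeR's filter on low counts and were tested. Compared per length, as CPM per kb of annotated exon, 3 genes made up most of the summed level of the tested members. Adam9, a sheddase and integrin ligand, came first with 97.0 CPM per kb in mock and 91.5 in p140Cap cells. Mmp15, a membrane-bound MMP, followed with 63.3 in mock and 82.6 in p140Cap cells. Adam10, the principal sheddase of Notch receptors and of E-cadherin, had 61.1 and 69.6 CPM per kb. Averaged over the 6 libraries these 3 genes contributed 72.6% of the sum, and Adam17, which releases TNF and several EGF family ligands, added 5.64% as the next in order. Mmp15 stood above Adam10 in mean level in each group, but in mock cells the difference was smaller than the SD of Mmp15.

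**Figure D1:**
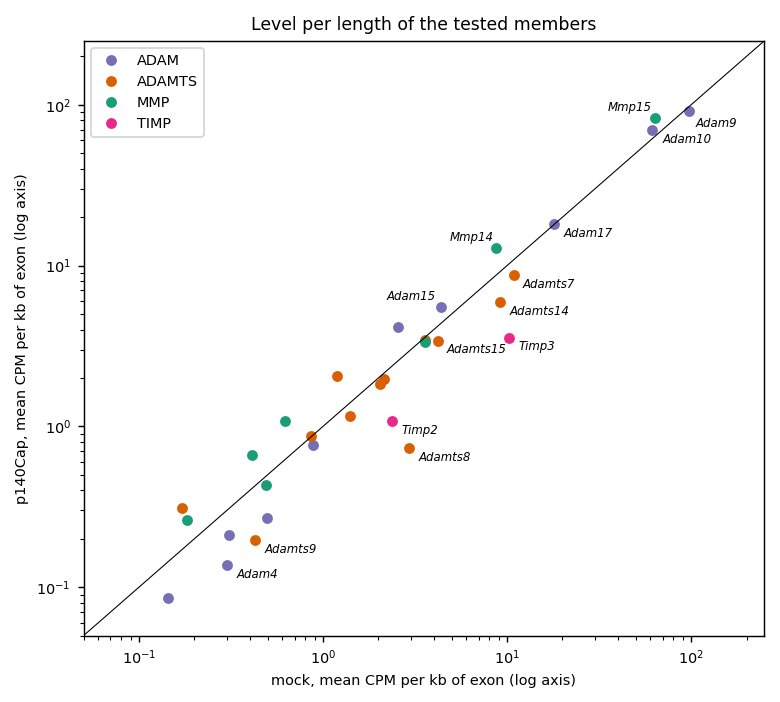
Mean level of each tested member in mock cells (x axis) and p140Cap cells (y axis), both in CPM per kb of exon on log axes, with the line of equal level. Adam9, Mmp15 and Adam10 sit at the upper end near the line, while Timp3, Timp2 and Adamts8 lie farthest below it among the labelled genes above 1 CPM per kb in mock cells.

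Differential expression was tested on all 11800 genes that passed the filter, with edgeR's quasi-likelihood test, Benjamini-Hochberg adjustment over all of them and a threshold of 0.05. Of the 31 tested members, 11 fell and 10 rose in p140Cap cells, that is, 67.7% were called. Over all genes tested the corresponding share was 71.1% (35.9% lower and 35.2% higher), so the share of called members was near the background. The median log2FC of the tested members was -0.14, with a range from -2.01 to 0.83, against a median of 0.00 for all genes. Changes of at least 1 log2 unit were found in 1 direction: 5 members fell by that much (16.1% of those tested, background 5.04%) and 0 rose (background 4.93%). The 5 were Adamts8, Timp3, Timp2, Adamts9 and Adam4. For 22 of the 31, every mock value lay on one side of every p140Cap value (background 73.4%), with p140Cap below mock in 12 (background 37.2%) and above in 10 (background 36.3%). In bulk RNA, fewer cells of a kind and less RNA per cell cannot be told apart.

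These counts depended on single libraries among the weaker changes. The number of lower members was 7 without mock replicate 1 and 7 without p140Cap replicate 3. The number lower by at least 1 log2 unit was 3 in each case, since Adam4 lost its call and Adamts9 moved to -0.98 and -0.99 with its call kept. Shares over all genes were not counted for these runs, so whether the fall is particular to the members is not known. The number of higher members was 10 in every one of the 13 alternative analyses, but the genes were not always the same. Without p140Cap replicate 3, Mmp23 lost its call and Mmp19, which had too few reads for the main test, was called higher. Of the 21 called members, 16 kept their call and direction in all alternatives that tested them.

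**Figure D2:**
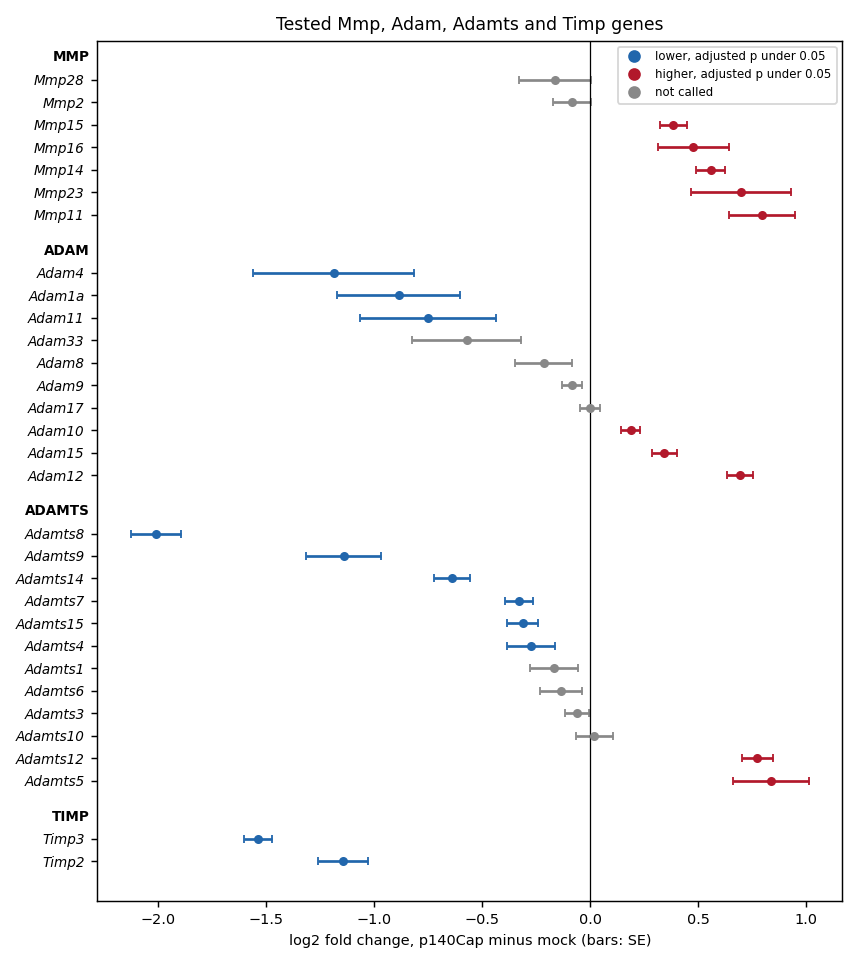
Log2 fold change (log2FC) between p140Cap and mock cells of the 31 tested members (points) with SE (bars), grouped by family and ordered within it, with called genes in colour. Values run from -2.01 for Adamts8 to 0.83 for Adamts5, the 5 called Mmp genes lie above 0, and both tested Timp genes lie below -1.

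Both tested TIMP genes fell in p140Cap cells (background 35.9% called lower). Timp3 (ENSMUSG00000020044, chromosome 10 of GRCm38, 86300412 to 86349505) is the matrix-bound inhibitor with the widest target range. It was at 88.4, 84.8 and 78.5 CPM in the mock libraries and at 26.9, 30.1 and 30.04 CPM in the p140Cap libraries. The lowest mock library was thus far above the highest p140Cap library. Means were 83.9 ± 5.01 and 29.0 ± 1.84 CPM (SD, n = 3), a 2.90-fold lower level, with a log2FC of -1.54 (SE 0.06, adjusted p = 5.62e-12). Leaving out any library kept the value between -1.58 and -1.49.

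Timp2 (ENSMUSG00000017466, chromosome 11, 118301061 to 118355411) is both an inhibitor and, with the membrane-bound MMP14, part of the complex that activates pro-MMP2. Its level was 11.4, 11.04 and 9.28 CPM in mock cells and 5.21, 4.70 and 4.55 CPM in p140Cap cells, again without overlap. This corresponds to 10.6 ± 1.14 against 4.82 ± 0.343 CPM (SD, n = 3) and a log2FC of -1.14 (SE 0.12, adjusted p = 1.81e-07). Timp1 had 7 reads over all libraries and Timp4 had none, so neither could be compared.

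Timp3 lies inside Syn3 on the opposite strand, and the strand setting of the read counting is not stated in the sources used here. Syn3 had 152 reads in mock and 45 in p140Cap cells in all, far fewer than the 12755 and 1259 reads of Timp3. Timp2 overlaps Cep295nl on its own strand, which leaves its reads less certain. The 250 bases before the start of both genes, from RefSeq and GRCm38.p6, are shown because these are the members with the clearest decrease that have a promoter window, with each CG dinucleotide in capitals:
Timp3, chr10:86300162-86300411, plus strand: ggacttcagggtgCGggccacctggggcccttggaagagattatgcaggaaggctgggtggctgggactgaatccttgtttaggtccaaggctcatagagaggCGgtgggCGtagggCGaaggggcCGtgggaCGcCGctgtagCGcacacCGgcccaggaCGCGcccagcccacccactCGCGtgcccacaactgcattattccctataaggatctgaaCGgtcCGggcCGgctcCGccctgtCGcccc
Timp2, chr11:118355412-118355661, minus strand: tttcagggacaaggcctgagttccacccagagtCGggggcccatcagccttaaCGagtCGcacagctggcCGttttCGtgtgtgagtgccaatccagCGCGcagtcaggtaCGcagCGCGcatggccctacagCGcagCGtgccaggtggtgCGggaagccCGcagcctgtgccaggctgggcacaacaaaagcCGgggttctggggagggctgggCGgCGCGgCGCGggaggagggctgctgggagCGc
Timp3 held 18 CG dinucleotides in this stretch and Timp2 held 21. The median was 16.5 for windows of tested members, 1 for those of members not tested and 6 for all promoters.

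**Figure D3:**
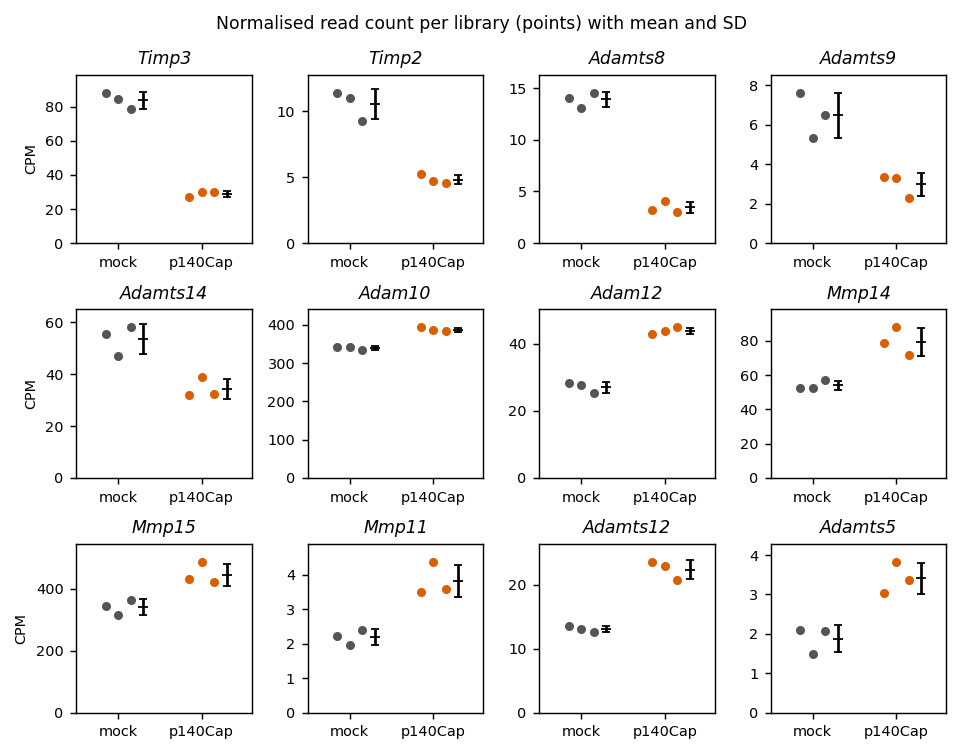
Normalised read count (CPM, y axis from 0) of 12 members in each mock (grey) and p140Cap (orange) library, with mean and SD beside the points. The 12 were picked among called members whose groups do not overlap, so no panel shows an overlap (background 73.4% of genes tested). Members with overlapping groups, such as Adam17 and Mmp2, are not shown. Timp3, Timp2, Adamts8, Adamts9 and Adamts14 are lower in the p140Cap libraries, while the other 7 genes are higher.

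MMPs grouped here as membrane-bound moved the other way. All 4 tested members of this group were higher in p140Cap cells (Mmp14, Mmp15, Mmp16 and Mmp23, median log2FC 0.52, background 35.2% called higher). Mmp15 (ENSMUSG00000031790, chromosome 8, 95352296 to 95374293) rose from 343, 317 and 365 CPM in mock to 431, 486 and 421 CPM in p140Cap libraries. The increase was modest in size but larger than the spread between libraries, with 342 ± 24.4 against 446 ± 35.1 CPM (SD, n = 3) and a log2FC of 0.38 (SE 0.06, adjusted p = 3.45e-05). Mmp14, a collagenase of the cell surface and an activator of pro-MMP2, was at 52.5, 52.2 and 57.2 CPM in mock and 78.4, 87.7 and 71.4 CPM in p140Cap cells. Its log2FC was 0.56 (SE 0.07, adjusted p = 1.13e-06). Genes annotated on both strands overlap Mmp14. Mmp16 rose by 0.48 (SE 0.16, adjusted p = 0.0150) at 2.75 CPM in mock cells. Mmp23 was a rare transcript of 1.10 CPM in mock cells and rose by 0.70 (adjusted p = 0.0124), a call that was lost without p140Cap replicate 3 (log2FC 0.46, adjusted p = 0.133). The other members of this group, Mmp17, Mmp24 and Mmp25, had at most 11 reads over all libraries.

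The level of membrane-bound MMPs relative to TIMPs can be read within each library. Summed per length, the 4 membrane-bound MMPs had 72.7 ± 4.97 CPM per kb in mock and 96.4 ± 7.68 in p140Cap cells, and the 2 TIMPs had 12.7 ± 0.867 and 4.64 ± 0.152 CPM per kb (SD, n = 3). Their ratio was 5.43, 5.25 and 6.63 in the mock libraries and 20.9, 22.1 and 19.3 in the p140Cap libraries. These sums rest mainly on Mmp15 and Timp3, the ratio was formed after the single genes had been seen, and it was not tested.

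Among secreted MMPs only 3 could be tested. Mmp11 (stromelysin-3), which has little activity on classical matrix proteins, rose from 2.23, 1.96 and 2.40 CPM to 3.49, 4.36 and 3.60 CPM, a log2FC of 0.80 (SE 0.15, adjusted p = 0.000191). Mmp2 (gelatinase A), the enzyme activated by MMP14 and TIMP2, was not called, at 12.7 ± 0.847 CPM in mock and 11.9 ± 0.995 CPM in p140Cap cells (SD, n = 3). Its log2FC was -0.08, and 2 SE on either side reached from -0.26 to 0.09. Mmp28 (epilysin) was not called either, at -0.16, with overlapping groups. Mmp9 (gelatinase B), which is singled out with its values known, had 15, 10 and 2 mock reads and none in p140Cap cells. Set against a floor of 3 reads over the p140Cap group, its level pooled over the mock libraries was at least 2.62-fold higher. That floor covers the counting error of the p140Cap group and not that of the 27 mock reads, and mock replicate 3 alone lay below it. It had too few reads for the test, and was called lower in the 1 alternative that tested it, the analysis without a filter (adjusted p = 0.00399).

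Of 7 tested ADAMs of the shedding type, 3 were higher (42.9%, background 35.2%), 4 were not called and 0 were lower (background 35.9%). Adam10 (ENSMUSG00000054693, chromosome 9, 70678944 to 70780229) was at 344, 342 and 335 CPM in mock and 393, 386 and 383 CPM in p140Cap cells. Groups did not overlap, yet the change was small, with a log2FC of 0.19 (SE 0.04, adjusted p = 0.0013). Adam17 (chromosome 12, 21323509 to 21373632) was at 156, 157 and 151 CPM in mock and 158, 152 and 154 CPM in p140Cap cells. Its level was 155 ± 2.84 and 155 ± 2.89 CPM (SD, n = 3), and the interval of 2 SE around the log2FC reached from -0.09 to 0.09 (adjusted p = 0.99). Adam9, the member with the highest level per length, was not called at 422 ± 13.4 and 398 ± 8.02 CPM (log2FC -0.08, SE 0.05, adjusted p = 0.114). It was called lower without mock replicate 3, at -0.12 (adjusted p = 0.0403).

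Adam12, a sheddase often raised in breast tumors, had the largest increase of this group. It went from 28.1, 27.6 and 25.1 CPM in mock to 42.8, 43.7 and 44.8 CPM in p140Cap cells, a 1.62-fold higher level (log2FC 0.69, SE 0.06, adjusted p = 2.9e-08). Genes annotated on both strands overlap it. Adam15, whose disintegrin domain binds integrins, rose from 34.7 ± 1.40 to 43.9 ± 1.57 CPM (SD, n = 3), a log2FC of 0.34 (SE 0.06, adjusted p = 4.49e-05). Adam8 and Adam33 were at -0.21 and -0.57 without a call. For Adam33 the adjusted p was 0.0525, and 6 of the 13 alternatives called it lower, with values from -0.98 to -0.35 over all alternatives.

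Other ADAMs were rare. Of the 21 members known mostly from the reproductive tract, 15 had no read and only Adam1a and Adam4 could be tested. Both were lower (background 35.9%), at -0.89 (SE 0.28, adjusted p = 0.0106) and -1.19 (SE 0.37, adjusted p = 0.0093). Adam4 had 71, 26 and 23 reads in mock and 5, 7 and 3 in p140Cap libraries. Without mock replicate 1 or without p140Cap replicate 3 neither gene was called (Adam4 at -0.95 and -0.97, adjusted p = 0.0548 and 0.0539; Adam1a at -0.75 and -0.53, adjusted p = 0.0526 and 0.0821). Adam1a was not called with libraries thinned to the smallest total either (-0.66, adjusted p = 0.0889). Adam4 lies within Cox16 on the same strand, a gene with 1718 reads in mock replicate 1 that was itself called lower (log2FC -0.24, adjusted p = 0.009, edgeR), and Adam1a has a close copy, Adam1b, 15168 bases away, so the reads of both are uncertain. Adam11, a member without protease activity known from the nervous system, was at 0.819 ± 0.0195 CPM in mock and 0.486 ± 0.144 CPM in p140Cap cells (SD, n = 3), a log2FC of -0.75 (adjusted p = 0.0412). That call was lost in 8 of 11 alternatives, among them leaving out any library except p140Cap replicate 2 (adjusted p from 0.0611 to 0.209).

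Of 12 tested ADAMTS genes, 6 were lower, 2 were higher and 4 were not called, so that 66.7% were called, near the background of 71.1%. Adamts8 (ENSMUSG00000031994, chromosome 9, 30942562 to 30963838), a proteoglycanase also described as an inhibitor of angiogenesis, had the lowest log2FC of the 31 tested members. It was at 14.1, 13.1 and 14.6 CPM in mock and 3.23, 4.09 and 3.01 CPM in p140Cap cells, a 4.03-fold lower level. Means were 13.9 ± 0.746 and 3.44 ± 0.569 CPM (SD, n = 3), with a log2FC of -2.01 (SE 0.11, adjusted p = 1.88e-10). Its neighbour Adamts15, another proteoglycanase 20109 bases away, fell less, from 44.2 ± 4.52 to 35.7 ± 1.27 CPM (log2FC -0.31, SE 0.07, adjusted p = 0.00108).

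The other proteoglycanases differed among themselves. Adamts9 was at 7.62, 5.33 and 6.49 CPM in mock and 3.36, 3.27 and 2.28 CPM in p140Cap cells, a log2FC of -1.14 (SE 0.17, adjusted p = 1.8e-05). Genes on both strands overlap it. Adamts4 had a log2FC of -0.28 (SE 0.11, adjusted p = 0.0339), although p140Cap replicate 2 overlapped the mock libraries. Its call was lost without mock replicate 1 or 2 and without p140Cap replicate 1 or 3, with a log2FC between -0.27 and -0.17 and an adjusted p between 0.0556 and 0.22. It was also lost in DESeq2 (-0.27, adjusted p = 0.0692) and with libraries thinned to the smallest total (-0.20, adjusted p = 0.207). Adamts5, a major aggrecanase, rose from 2.09, 1.48 and 2.07 CPM to 3.03, 3.81 and 3.38 CPM, a log2FC of 0.83 (SE 0.18, adjusted p = 0.000443). Adamts1, which lies 55043 bases from Adamts5 on chromosome 16, was not called (log2FC -0.17, adjusted p = 0.193). Without p140Cap replicate 2 it was called lower, at -0.34 (adjusted p = 0.00907).

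Adamts7 and Adamts12 are close relatives that both cut cartilage oligomeric matrix protein (COMP), and they were called in opposite directions. Adamts7, with the highest level per length among ADAMTS genes (10.9 CPM per kb in mock and 8.68 in p140Cap cells), went from 73.5, 63.3 and 70.4 CPM to 52.7, 58.6 and 53.9 CPM, a log2FC of -0.33 (SE 0.06, adjusted p = 0.000199). Adamts12 went from 13.5, 13.1 and 12.6 CPM to 23.5, 23.0 and 20.7 CPM, a log2FC of 0.77 (SE 0.07, adjusted p = 7.33e-08). Of the enzymes that remove the N-propeptide of procollagens, Adamts14 fell from 53.5 ± 5.85 to 34.3 ± 3.83 CPM (log2FC -0.64, SE 0.08, adjusted p = 3.67e-06). Adamts3 was not called at 39.0 ± 1.30 and 37.5 ± 0.966 CPM (SD, n = 3, log2FC -0.06), and Adamts2 had no read. Adamts6 and Adamts10, which act on fibrillin microfibrils, were at -0.14 and 0.02 without a call. Adamts6 was called lower without mock replicate 3, at -0.22 (adjusted p = 0.0238).

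Of the 20 members with too few reads for the test, 4 had at least 30 reads over the 6 libraries. Pooled over each group and set against the normalised library sizes, Mmp19 had 35 reads in mock and 22 in p140Cap cells, a mock level 0.462 times that of p140Cap cells (95% exact counting interval 0.264 to 0.827). Its reads per library were 20, 13 and 2 in mock and 9, 10 and 3 in p140Cap cells. It was called higher in 1 of the 4 alternatives that tested it, without p140Cap replicate 3 (log2FC 1.44, adjusted p = 0.0278). For Adam32, Adamts17 and Adam21 the ratios of mock to p140Cap level were 0.926, 0.955 and 0.542, with intervals that held 1 in each case (0.520 to 1.74, 0.516 to 1.88 and 0.280 to 1.09). These intervals cover counting error only.

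Regulators and substrates of these proteases were read from a list of 58 other genes, of which 38 were tested, 14 were lower, 18 were higher and 6 were not called (84.2% called, median log2FC 0.11, against 71.1% and 0.00 for all genes). Reck, a membrane-anchored inhibitor of MMPs, rose most in this list, from 7.31 ± 0.893 CPM in mock to 21.4 ± 1.23 CPM in p140Cap cells (SD, n = 3). Its log2FC was 1.55 (SE 0.09, adjusted p = 2.52e-10), opposite in sign to those of Timp2 and Timp3. Lrp1, the endocytic receptor that clears MMPs, ADAMTS enzymes and TIMPs, rose by 1.22 (SE 0.13, adjusted p = 3.89e-07). Tspan17, a tetraspanin that binds ADAM10, rose by 1.11 (SE 0.12, adjusted p = 3.49e-07). Bsg (EMMPRIN), a surface protein known to induce MMPs in neighbouring cells, was outside the rule for named genes and is given as the fourth called increase above 1 log2 unit, at 1.10 (SE 0.06, adjusted p = 5.11e-11).

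Among ADAM10-binding tetraspanins, which guide this sheddase to its substrates, all 5 tested genes were called (background 71.1%), 3 lower and 2 higher. Tspan33 had a log2FC of -1.61 (SE 0.14, adjusted p = 1.86e-08), Tspan5 and Tspan15 were lower and Tspan14 was higher. Of 4 tested convertases, which activate the protease precursors, 2 were lower (background 35.9%), 1 was higher (background 35.2%) and Pcsk7 was not called. Pcsk5 fell, with 58, 29 and 28 reads in mock and 0, 3 and 5 reads in p140Cap libraries (fitted log2FC -2.04, SE 0.50, adjusted p = 0.00152), Pcsk6 was lower and Furin was slightly higher at 0.15. Of 18 tested substrates of ADAM10 or ADAM17, 7 were lower (background 35.9%), 10 were higher (background 35.2%) and 1 was not called. The largest decrease was that of Cxcl16, a chemokine released by ADAM10, with 64, 32 and 46 reads in mock and 0, 1 and 1 reads in p140Cap libraries (adjusted p = 1.91e-05).

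**Figure D4:**
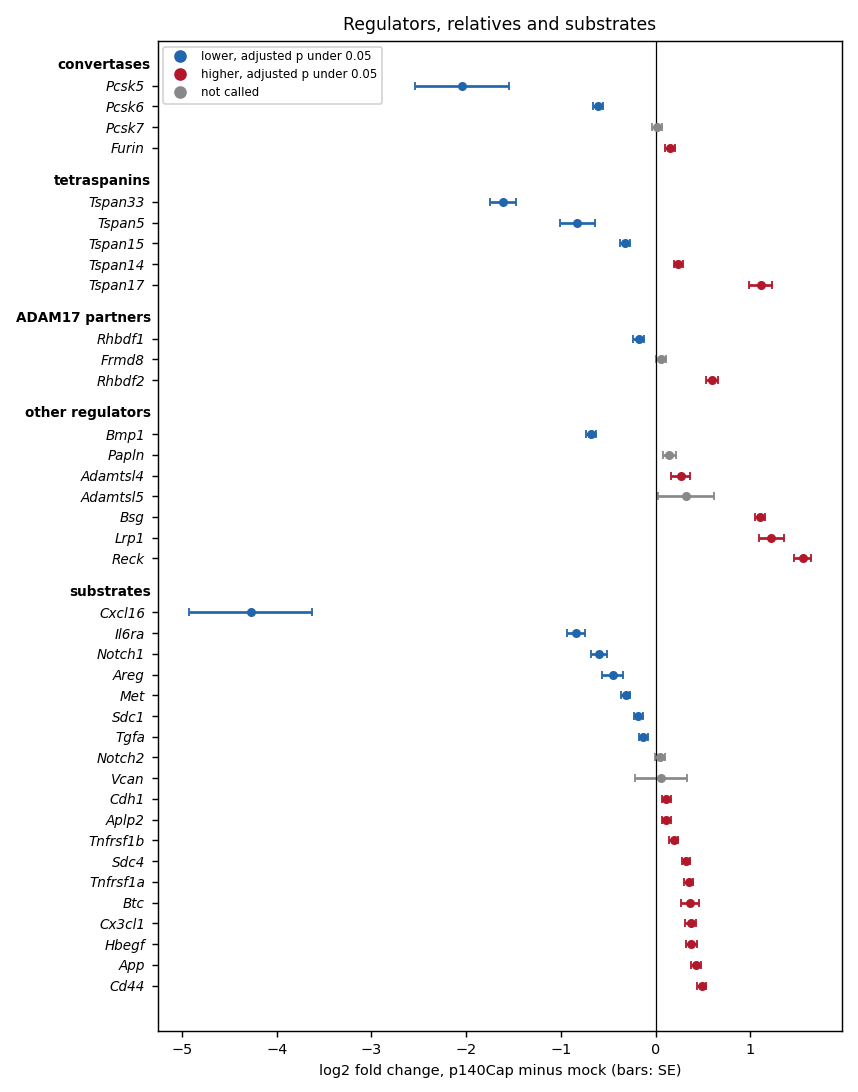
Log2 fold change between p140Cap and mock cells of 38 tested regulators, relatives and substrates of the proteases (points) with SE (bars), grouped by role. Reck, Lrp1, Tspan17 and Bsg lie above 1, and Cxcl16, Pcsk5 and Tspan33 lie below -1.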

How the data were processed

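RNA-Seq counts of 3 mock and 3 p140Cap TuBo libraries were analysed. Libraries were poly(A)-selected and stranded, and were sequenced on an Illumina NextSeq instrument, each flow cell holding both groups. The authors deposited counts without normalization, given as whole numbers for 21960 genes. The submitters' processing notes name STAR 2.5, RSEM and mm10 with no role or order, and whether estimated counts were rounded is not stated. The paper names GRCm39. Each of the 6 columns was named after a sample.

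Differential expression was computed in R 4.3.3 with edgeR 4.0.16 (TMM factors, filterByExpr by group, quasi-likelihood test, group only in the model, Benjamini-Hochberg adjustment over 11800 genes, threshold 0.05). CPM used TMM-adjusted library sizes, SE was taken as the size of the log2 fold change over the root of the F statistic, and exon lengths and overlapping genes came from GENCODE M39 (GRCm39) by Ensembl identifier. Gene positions and promoters came from RefSeq tables of GRCm38.p6, the assembly also called mm10, by symbol. Scripts were tested on simulated counts.

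The members and lists were chosen with earlier results of these data known. Every tested member could be named. Full values went to called members with a change of at least 1 log2 unit, tested Timp genes, Adam10, Adam17 and the member of each family with the highest level per length, and further members are given as space allowed. Members with too few reads were named from 30 reads upwards, and in the list of regulators up to 3 called genes in each direction with the largest change were named, Srcin1 being the check of the transduced gene. Bsg, Mmp9, Tspan5, Tspan15, Tspan14, Pcsk6, Pcsk7 and Furin, and low members named as part of a gene cluster or family, do not follow this rule and were added with their values known. A search for the zinc-binding motif in member proteins was planned and not run.

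Nothing says that replicates came from separate cultures, so p-values measure the spread between these libraries, which may be technical. The common coefficient of biological variation was 4.57%. Between libraries of a group the mean chi-square per gene was 1.75 to 10.7, where sampling noise gives 1, so no library was a copy of another. Alternatives were RLE factors, DESeq2 1.42.0, limma-voom (limma 3.58.1), no filter, at least 10 reads in every library, leaving out each library and the replicate number as a block. Thinning all libraries to the smallest total was added after seeing the data.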

Additional observations from a re-analysis of the deposited data

How the results depend on the processing

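Of the 21 called members, 16 kept direction and call under all 13 alternatives that tested them, none reversed, and Adam11, Adam1a, Adam4, Adamts4 and Mmp23 lost the call under at least 1. The number of lower members was 11, and lay between 7 and 13 when single libraries were left out. The number lower by at least 1 log2 unit was 5, and lay between 3 and 6. The number higher by at least 1 log2 unit was 0, and lay between 0 and 1, the 1 being Mmp19. The number of higher members and both counts of the list of regulators stayed within 1.5 times. Counts per family or role, and shares over all genes, were not taken for the alternatives. Without mock replicate 1 the Adam1a, Adam4 and Adam11 calls were all lost, which are the 3 lower calls among Adam genes. Adamts10, which was not called, changed sign without a filter on low counts (-0.011) and with thinned libraries (-0.02), and lay between -0.021 and 0.048 with each library left out. Adam17, also not called, changed sign with some libraries left out and lay between -0.02 and 0.01. The cause was not tested. With all libraries thinned to the smallest total, 8 members were lower and 10 higher, and those lower by at least 1 log2 unit were again Adamts8, Timp3, Timp2, Adamts9 and Adam4. Same-numbered libraries did not deviate together (correlations -0.03, -0.11 and -0.06), so the numbers gave no sign of pairing. Whether same-numbered samples were prepared together is not known from this. With the replicate number as a block, 10 members were lower and 10 higher, and Adam11 lost its call (adjusted p = 0.0581, edgeR). Of the 78 members, 47 had too few reads for a test, and 27 of these had no read in any library. Thinning to the smallest total left 30 members tested in place of 31.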
